A study of Mus musculus with 25 samples.

Results

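Laminins, nidogens and perlecan make up most of the non-collagenous scaffold of basement membranes, and 10 genes for them were followed through 5 embryonic mouse mesenchymes. The genes were chosen by name, as the laminin chains Lama1, Lama2, Lama4, Lama5, Lamb1, Lamb2 and Lamc1, the nidogens Nid1 and Nid2, and perlecan, Hspg2. All 10 were present among the 35880 genes of the expression table, and all 10 were among the 17657 genes with enough counts to be tested.

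C57Bl/6JOlaHsd embryos gave 25 pools of mesenchyme for RNA-Seq, 5 for each tissue. The tissues were the mesenchyme around the mammary bud at E13.5 (E13.5 MM), E13.5 ventral skin mesenchyme taken away from the buds (VM), E13.5 salivary gland mesenchyme (SM), the E16.5 mammary mesenchyme, which surrounds a sprouting epithelium (E16.5 MM), and the E16.5 fat pad precursor (FP). Each pool held tissue of 2 to 3 embryos of the same litter, and with 5 pools from 3 litters in every tissue some pools shared a litter, so p-values measure the spread between pools. Before RNA was taken, the tissues were treated with Dispase II and pancreatin-trypsin and the epithelium was removed by needle, so the pools were meant to hold little epithelial RNA. The E16.5 embryos were labelled female, and for E13.5 no sex was given.

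A basement membrane is a thin sheet of matrix between epithelium and mesenchyme that also wraps blood vessels, muscle fibers, fat cells and nerves. A laminin is a trimer of an alpha, a beta and a gamma chain, and the alpha chain decides which receptors it binds. Nidogens bridge the laminin network to that of type IV collagen, and perlecan is a heparan sulfate proteoglycan that binds growth factors. In glands much of this matrix is made by the mesenchyme and lies on the epithelium.

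In the GRCm38 (mm10) assembly the laminin alpha genes lie at chr17:67697259-67822647 (Lama1), chr10:26980036-27619758 (Lama2), chr10:38965515-39110188 (Lama4) and chr2:180176373-180225859 (Lama5). The beta and gamma genes lie at chr12:31265234-31329644 (Lamb1), chr9:108479736-108490530 (Lamb2) and chr1:153218922-153332786 (Lamc1). Nid1 lies at chr13:13437551-13512269, Nid2 at chr14:19751265-19811787 and Hspg2 at chr4:137468769-137570630. All are protein-coding genes. In the GENCODE M21 annotation, exons of Lama2, Nid1 and Nid2 overlap exons of a gene on the other strand (Gm48084, Gm48682 and Rtraf), and since it is not given whether counting used strand, reads of those stretches cannot be told apart.

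RefSeq promoter windows of 250 bases before the RefSeq start were found for 6 of the 10 genes, Lama2, Lama5, Lamb1, Lamb2, Nid1 and Hspg2, and not for Lama1, Lama4, Lamc1 and Nid2. Printed here, 5′ to 3′ on the strand of the gene and only as far as the first base that GENCODE M21 places in the gene, are those of Lamb1, which was much higher in SM than elsewhere, and of Lama5 and Hspg2, which were higher in both E16.5 tissues than in E13.5 MM. Capitals mark the GC box GGGCGG on either strand. The stretches shown are chr12:31265043-31265233 on the plus strand, chr2:180225860-180226109 on the minus strand and chr4:137468553-137468768 on the plus strand of GRCm38.p6.
Lamb1: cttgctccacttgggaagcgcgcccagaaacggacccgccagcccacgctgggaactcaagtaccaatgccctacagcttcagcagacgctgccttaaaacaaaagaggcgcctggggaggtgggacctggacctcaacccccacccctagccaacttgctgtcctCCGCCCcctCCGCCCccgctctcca
Lama5: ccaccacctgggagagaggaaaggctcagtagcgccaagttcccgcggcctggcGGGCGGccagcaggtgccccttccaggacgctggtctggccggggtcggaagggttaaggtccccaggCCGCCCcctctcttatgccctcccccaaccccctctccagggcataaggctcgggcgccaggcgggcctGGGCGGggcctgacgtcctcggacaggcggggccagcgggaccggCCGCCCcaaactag
Hspg2: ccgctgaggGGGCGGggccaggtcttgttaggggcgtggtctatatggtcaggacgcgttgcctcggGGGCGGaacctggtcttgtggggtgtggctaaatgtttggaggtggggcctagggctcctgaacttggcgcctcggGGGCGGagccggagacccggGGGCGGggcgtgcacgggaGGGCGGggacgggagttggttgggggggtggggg
In the whole windows the GC box occurred 2 times for Lamb1, 4 times for Lama5, 5 times for Hspg2 and 1 time for Nid1. It was absent from the windows of Lama2 and Lamb2. The Lama2 window lies inside the span GENCODE M21 gives the gene, at another start site, so its values are not those of the outermost start. Of all 32851 promoter windows of the same length, 32.7% held the GC box. The GC content was 72.4% for Lama5, 70.0% for Hspg2, 64.4% for Nid1 and 62.0% for Lamb1, against 47.2% for Lama2, 43.6% for Lamb2 and a median of 52.4% over all windows. None of the 6 windows held the TATA box TATAAA, found in 12.4% of all windows, or the E box CACGTG, found in 6.02%. These are matches of letters and were not tested as binding sites.

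The libraries held 20678150 to 34448304 counts, with a median of 26370369. Marker genes were checked against the labels by their summed CPM (counts divided by library size). The salivary list ran from 653 to 788 in SM and reached at most 64.5 in any pool of the other tissues. The adipocyte list ran from 1094 to 1808 in FP, above all other pools, and Adipoq was at 0 in SM. The mammary list was highest in E16.5 MM (824 to 1743), but in E13.5 MM (465 to 626) it overlapped that of VM (476 to 571) and SM (427 to 695), so the label of E13.5 MM was not set apart by it. The skin list did not set VM apart either. It ran from 1088 to 1498 in VM, overlapping SM (1036 to 1590). All pools of E13.5 MM (2024 to 2364), E16.5 MM (4280 to 5482) and FP (2288 to 3184) lay above VM. These are bulk samples, in which fewer cells of a type and less RNA per cell cannot be told apart.

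**Figure D1:**
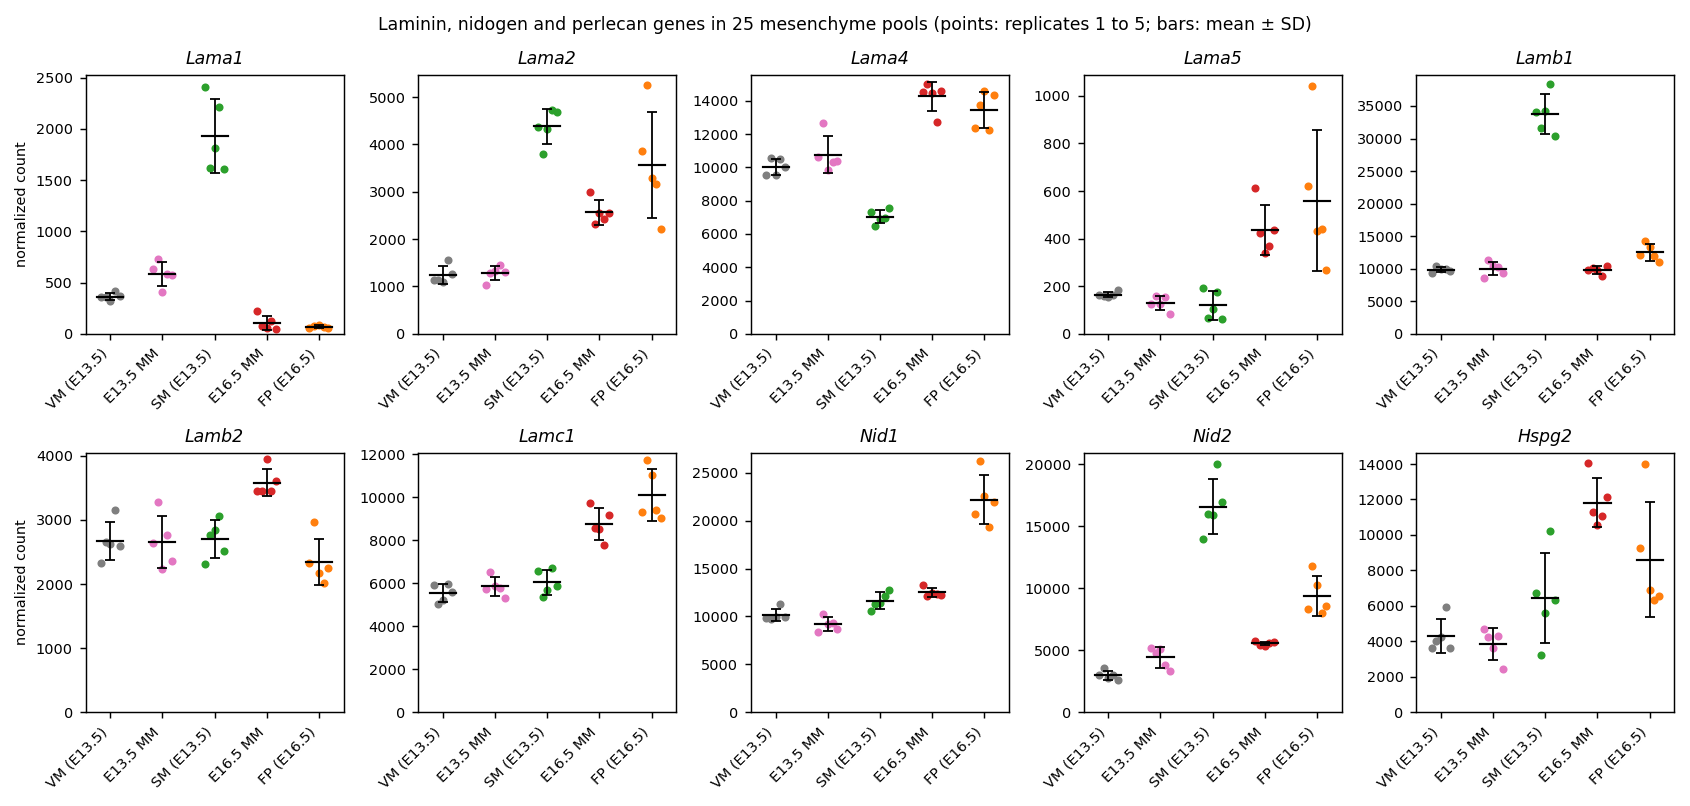
Normalized counts (y axis, linear from 0) of the 10 genes in each pool, grouped by tissue on the x axis. Points are replicates 1 to 5 from left to right and bars give the mean and SD. Lamb1 and Nid2 stand apart in SM, and Nid1 in FP.

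Values for a gene are given as normalized counts, which are counts scaled by library size and TMM factors to the mean library. A gene was called different between tissues when the adjusted p of edgeR was below 0.05, the log2 fold change was at least 0.58 in size and the mean normalized count of the higher tissue was above 50. Errors on log2 fold changes are SE. Where a gene is said to rise or fall to FP, E13.5 MM is the reference, and FP differs from it in tissue as well as stage.

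Of the alpha chains, Lama1, the chain of the early embryonic laminin-111, was high in salivary mesenchyme and low at E16.5. It stood at 2411, 1614, 1815, 2213 and 1613 normalized counts in SM and at 629, 733, 404, 585 and 576 in E13.5 MM. In VM the values were 355, 357, 317, 422 and 371. No pool of SM overlapped any pool of the other tissues. In E16.5 MM Lama1 stood at 220, 75.4, 57.6, 125 and 46.3, and in FP at 53.3, 78.3, 89.9, 70.4 and 60.2. The E16.5 pools thus lay below every E13.5 pool, and replicate 1 of E16.5 MM lay above the rest of its group. From E13.5 to E16.5 MM, Lama1 fell by 2.48 ± 0.28 on the log2 scale (edgeR, adjusted p = 1.9e-07), and to FP by 3.06 ± 0.29 (edgeR, adjusted p = 6.3e-09). Against SM it was lower in E13.5 MM (log2 fold change -1.72 ± 0.26, edgeR adjusted p = 4.5e-06) and in FP (-4.78 ± 0.31, edgeR adjusted p = 3.0e-12). E13.5 MM and VM differed by 0.69 ± 0.26 (edgeR, adjusted p = 0.078), which was not called, and their ranges overlapped.

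Lama2, the chain of the laminin of muscle and peripheral nerve, was also highest in salivary mesenchyme, but unlike Lama1 it was higher at E16.5 than in E13.5 MM. It stood at 4368, 3796, 4333, 4729 and 4688 normalized counts in SM. In E13.5 MM the values were 1032, 1283, 1330, 1457 and 1305, and in VM they were 1139, 1144, 1088, 1558 and 1254, so these groups overlapped. E16.5 MM held 3000, 2311, 2561, 2421 and 2558, and FP held 3857, 5264, 3289, 3174 and 2213. The fat pad pools were the most scattered, with replicate 2 the highest of all 25 pools and replicate 5 below every pool of E16.5 MM. Lama2 rose from E13.5 to E16.5 MM by 1.003 ± 0.15 (edgeR, adjusted p = 7.7e-06) and to FP by 1.47 ± 0.15 (edgeR, adjusted p = 1.4e-08). FP and SM, the leading tissues, were not told apart (-0.30 ± 0.15, edgeR adjusted p = 0.075).

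Lama4, the chain of the laminins of vessel walls and of much of the mesenchyme, had the narrowest range of the alpha chains. Its means ran from 7041 normalized counts in SM to 10038 in VM, 10772 in E13.5 MM, 13466 in FP and 14265 in E16.5 MM. Every pool of SM, at 6475 to 7537, lay below every other pool. Lama4 was called higher in E13.5 MM than in SM (0.61 ± 0.07, edgeR adjusted p = 4.9e-08), a call that was lost without replicate 2 of E13.5 MM, where the value was 0.55. It was higher also in E16.5 MM (1.02 ± 0.07, edgeR adjusted p = 4.1e-12) and in FP (0.94 ± 0.07, edgeR adjusted p = 1.7e-11) than in SM. Between E13.5 MM and E16.5 MM the difference of 0.41 ± 0.07 passed the adjusted p of edgeR (4.3e-05) but not the fold a call needs.

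Lama5, the most widespread alpha chain of mature basement membranes, had the smallest share of alpha chain transcripts per length at E13.5 and rose at E16.5. Its normalized counts stood at 124, 160, 125, 153 and 84.7 in E13.5 MM and at 612, 425, 340, 368 and 435 in E16.5 MM. In FP the values were 622, 1040, 431, 441 and 267, and the ranges of both E16.5 tissues lay above that of E13.5 MM without overlap. The rise was 1.75 ± 0.32 to E16.5 MM (edgeR, adjusted p = 8.5e-05) and 2.11 ± 0.32 to FP (edgeR, adjusted p = 5.8e-06). VM stood at 154 to 183 and SM at 60.6 to 194, and the E13.5 tissues were not told apart from each other.

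Of the beta chains, Lamb1, the partner of most embryonic laminins, set salivary mesenchyme apart. It stood at 34088, 31588, 34282, 38343 and 30401 normalized counts in SM. In E13.5 MM it stood at 8618, 11269, 10413, 10281 and 9423. The other tissues ranged from 9370 to 10476 (VM), 8887 to 10401 (E16.5 MM) and 11092 to 14231 (FP), so that the lowest salivary pool lay above the highest pool of any other tissue. The log2 fold changes against SM were -1.75 ± 0.08 for E13.5 MM (edgeR, adjusted p = 1.6e-15), -1.78 ± 0.08 for VM (edgeR, adjusted p = 8.7e-16), -1.78 ± 0.08 for E16.5 MM (edgeR, adjusted p = 7.4e-16) and -1.43 ± 0.08 for FP (edgeR, adjusted p = 3.7e-14). VM, E13.5 MM and E16.5 MM had means of 9857, 10001 and 9797 and were not told apart.

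Lamb2, the beta chain of laminins at synapses and in mature vessels, differed little. Its means were 2655 normalized counts in E13.5 MM, 2674 in VM, 2703 in SM, 3583 in E16.5 MM and 2344 in FP. The 5 pools of E16.5 MM, at 3449 to 3950, lay above all pools of the other tissues. It was called in the comparison of the E16.5 tissues alone, where it was lower in FP than in E16.5 MM (-0.61 ± 0.11, edgeR adjusted p = 5.2e-05). That call was lost without replicate 4 of FP (-0.57) or without replicate 3 of E16.5 MM (-0.577).

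Lamc1, the gamma chain that nearly all of these laminins share, was higher at E16.5 than at E13.5. Its means were 5554 normalized counts in VM, 5848 in E13.5 MM and 6035 in SM, against 8747 in E16.5 MM and 10106 in FP. No E16.5 pool, at 7760 or more, overlapped an E13.5 pool, at 6726 or less. From E13.5 MM it rose by 0.79 ± 0.08 to FP (edgeR, adjusted p = 1.7e-08) and by 0.58 ± 0.08 to E16.5 MM (edgeR, adjusted p = 3.7e-06). The latter lay at the fold a call needs and was lost without replicate 3 or 5 of E13.5 MM or replicate 1 or 5 of E16.5 MM (0.54 to 0.58).

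Nid1 and Nid2 parted between the tissues. Nid1, the main laminin-binding nidogen, stood at 20745, 26200, 22538, 19375 and 21980 normalized counts in FP and at 13267, 12105, 12481, 12393 and 12262 in E16.5 MM. All 20 other pools, at 8382 to 13267, lay below the fat pad pools. It rose from E13.5 MM to FP by 1.27 ± 0.08 (edgeR, adjusted p = 2.9e-13), and FP was above E16.5 MM by 0.83 ± 0.07 (edgeR, adjusted p = 3.0e-09). Nid2 stood at 13968, 15947, 15856, 20030 and 16974 in SM, at 5146, 4792, 5088, 3780 and 3296 in E13.5 MM and at 8291, 11758, 10235, 7954 and 8562 in FP. The salivary pools lay above all others, and those of FP above the rest. In VM it stood at 2957, 3555, 2725, 3030 and 2589, and in E16.5 MM at 5697, 5447, 5353, 5596 and 5636. Nid2 was lower in E13.5 MM than in SM by a log2 fold change of -1.91 ± 0.13 (edgeR, adjusted p = 1.7e-12) and rose from E13.5 MM to FP by 1.08 ± 0.12 (edgeR, adjusted p = 4.4e-08). E13.5 MM against VM gave 0.57 ± 0.12 (edgeR, adjusted p = 0.0014), which missed the fold a call needs.

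Hspg2, perlecan, had its highest means at E16.5 and varied widely between pools of a tissue. It stood at 4704, 4239, 3596, 4295 and 2424 normalized counts in E13.5 MM and at 14050, 11300, 10586, 11060 and 12115 in E16.5 MM, without overlap. In FP the values were 9256, 13993, 6917, 6310 and 6539, with replicate 2 far above the rest, and in SM they were 6724, 3252, 5604, 10249 and 6328. Hspg2 rose from E13.5 to E16.5 MM by 1.62 ± 0.26 (edgeR, adjusted p = 1.8e-05) and to FP by 1.16 ± 0.25 (edgeR, adjusted p = 0.00050). It was called lower in E13.5 MM than in SM (-0.74 ± 0.25, edgeR adjusted p = 0.014), where the ranges overlapped and the call was lost without replicate 4 of SM (-0.51, edgeR adjusted p = 0.072) and in a fit of those tissues alone (-0.72, edgeR adjusted p = 0.0501). The difference of VM from SM was called at the threshold (-0.59 ± 0.25, edgeR adjusted p = 0.048) and was -0.35 without the same pool (edgeR, adjusted p = 0.21). That call was lost also without replicate 1, 2, 3 or 5 of VM or replicate 1, 3 or 5 of SM (-0.62 to -0.55, edgeR adjusted p = 0.052 to 0.095).

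**Figure D2:**
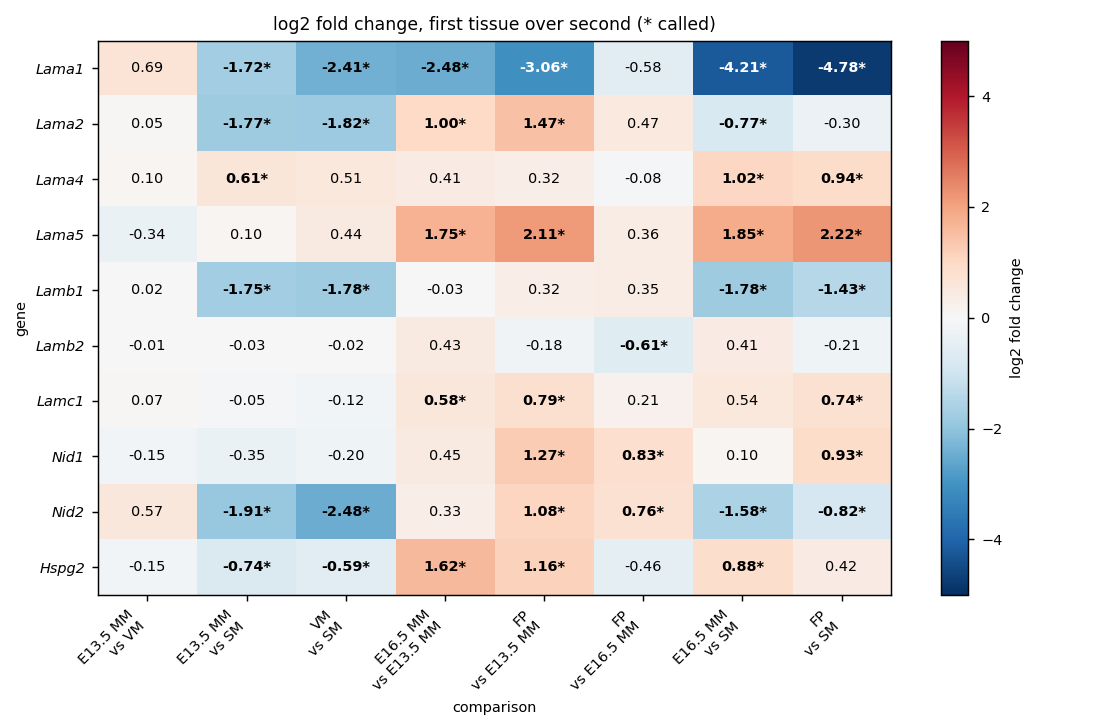
Log2 fold change (color and number) of the 10 genes (rows) in 8 comparisons (columns), the first tissue over the second. Bold numbers with an asterisk passed the call. Lama1 gives the extreme value, -4.78 in FP against SM, and the first column holds no call.

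The question of what sets the mammary mesenchyme apart from neighboring skin was addressed by E13.5 MM against VM, in which 0 of the 10 genes were called by edgeR. At an unadjusted p under 0.05 there were 2, Lama1 and Nid2, and the Wald test of DESeq2 called 1, Lama1. Over all genes tested, 3.79% were called higher and 2.66% lower in E13.5 MM. The median log2 fold change was 0.04 for the 10 genes and -0.01 for all genes. Nid2 was called when replicate 4 or 5 of E13.5 MM or replicate 1, 2 or 4 of VM was left out (0.58 to 0.67), and Lama1 without replicate 3 of E13.5 MM (0.79).

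The mammary and salivary mesenchymes were compared at the same stage. In E13.5 MM against SM, 1 gene was called higher (Lama4) and 5 lower (Lama1, Lama2, Lamb1, Nid2 and Hspg2), where 14.5% of all genes were called higher and 15.6% lower. The median log2 fold change of the 10 genes was -0.54, against 0.03 over all genes. In VM against SM the same comparison gave 0 genes higher and 5 lower, against 14.7% and 15.6% of all genes, with medians of -0.39 and 0.04. Both comparisons share the SM pools. Without replicate 4 of SM the genes called were 5 and 4.

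From E13.5 to E16.5 MM, the step from the quiet bud to the sprout, 4 genes were called higher (Lama2, Lama5, Lamc1 and Hspg2) and 1 lower (Lama1), where 12.6% of all genes were called higher and 7.16% lower. The ranges did not overlap for 9 of the 10 genes, as for 36.3% of all genes, and the median log2 fold change was 0.44, against 0.01 over all genes. From E13.5 MM to FP, 6 genes were called higher (Lama2, Lama5, Lamc1, Nid1, Nid2 and Hspg2) and Lama1 lower, where 14.3% and 11.2% of all genes were called, and the medians were 0.94 and 0.03. These comparisons share the E13.5 MM pools. FP differs from E13.5 MM in tissue and in stage, which cannot be told apart.

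Between the E16.5 tissues, 2 genes were called higher in FP (Nid1 and Nid2) and 1 lower (Lamb2), where 6.78% of all genes were higher and 7.34% lower. The medians were 0.28 for the 10 genes and 0.00 for all genes. Leaving out a pool moved the count to between 2 and 4. Without replicate 2 of FP, Hspg2 was also called lower (-0.72, edgeR adjusted p = 0.025), and without replicate 5 of FP, Lama2 was also called higher (0.60, edgeR adjusted p = 0.00076). Without replicate 5 of E16.5 MM, Lama1 was called lower (-0.77, edgeR adjusted p = 0.036), while without replicate 1 of that tissue its difference was -0.11 (edgeR, adjusted p = 0.79).

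Against SM, E16.5 MM had 3 genes called higher (Lama4, Lama5 and Hspg2) and 4 lower (Lama1, Lama2, Lamb1 and Nid2), where 18.5% and 16.6% of all genes were called. FP had 4 called higher (Lama4, Lama5, Lamc1 and Nid1) and 3 lower (Lama1, Lamb1 and Nid2), where 20.2% and 19.3% of all genes were called. In these comparisons tissue and stage differ together and cannot be told apart. The medians of the 10 genes were 0.25 and 0.11, and those of all genes -0.01 and 0.03. Lamc1 was also called higher in E16.5 MM without replicate 4 of that tissue (0.60) and in a fit of those tissues alone (0.61, edgeR adjusted p = 2.3e-05), and Hspg2 in FP without replicate 4 of SM (0.65).

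**Figure D3:**
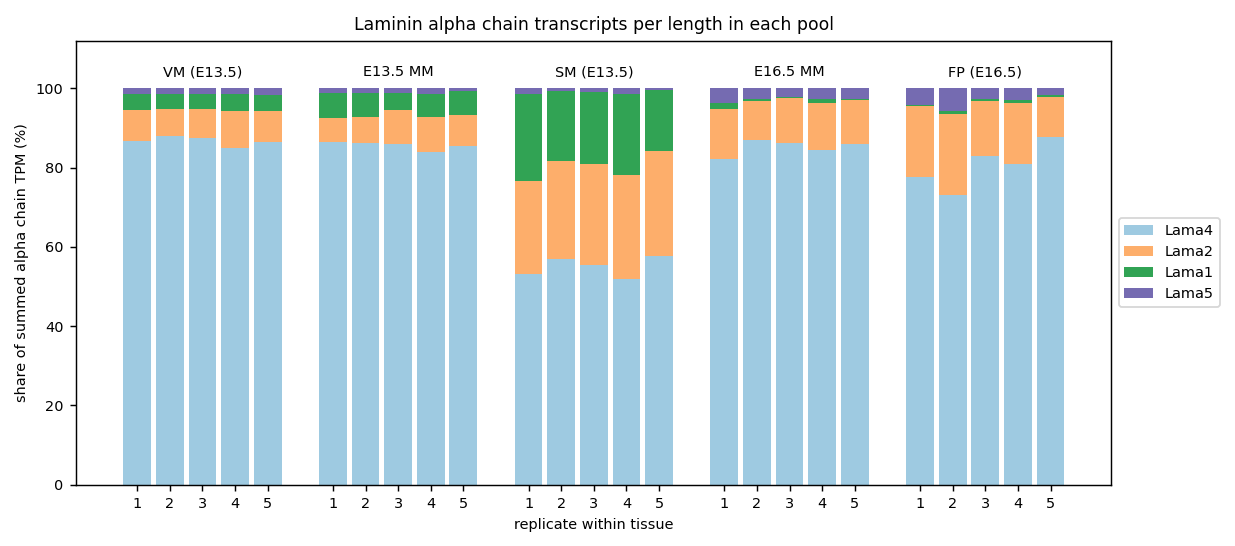
Share of each alpha chain (y axis, percent of the summed TPM of Lama1, Lama2, Lama4 and Lama5) in each pool (x axis, replicates 1 to 5 within each tissue). Lama4 fills most of every bar, and the Lama1 and Lama2 parts are widest in SM.

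Levels of different chains were compared per length, as TPM (counts divided by gene length and scaled to the same total in every library), with the union of annotated exons as length. Lama4 was the leading alpha chain in every tissue, with 86.7% ± 1.1 (SD, n = 5) of the summed TPM of the 4 alpha chains in VM, 85.6% ± 0.94 in E13.5 MM, 85.1% ± 1.8 in E16.5 MM and 80.4% ± 5.6 in FP. In SM its share was 55.0% ± 2.4. There Lama2 held 25.3% ± 1.2 and Lama1 18.7% ± 2.5, and both lay above the shares in all other pools. Lama1 held 5.77% ± 0.79 in E13.5 MM and 0.52% ± 0.088 in FP. With the longest transcript as length in place of the union of exons, the Lama4 share was 63.5% in SM and 89.6% in E13.5 MM, and the Lama1 share was 11.0% in SM, 3.07% in E13.5 MM and 0.28% in FP.

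**Figure D4:**
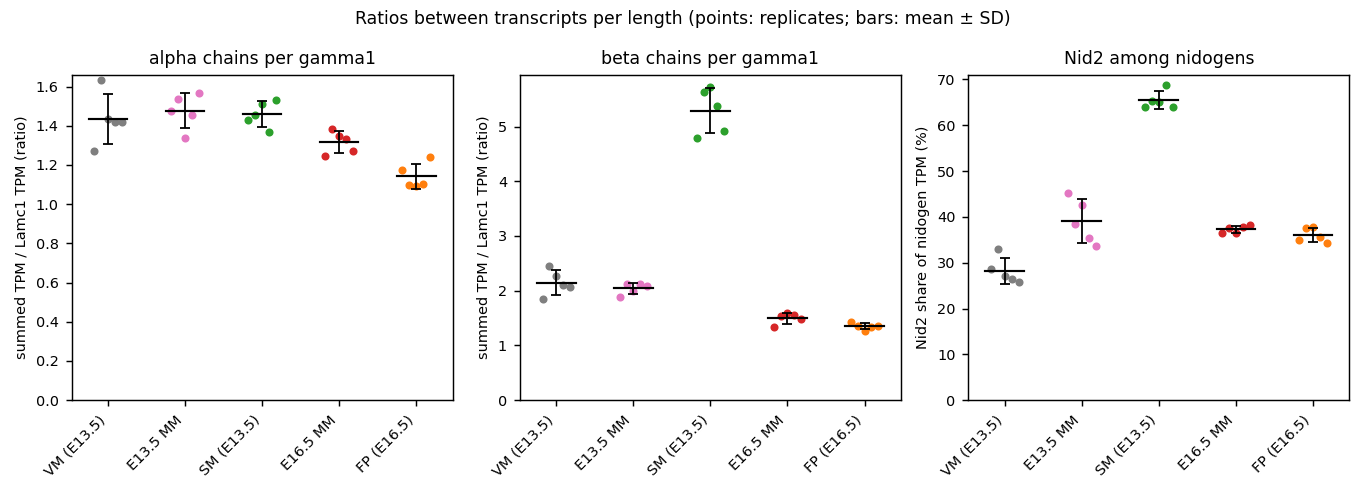
Summed alpha chain TPM over Lamc1 TPM (left), summed beta chain TPM over Lamc1 TPM (middle) and the Nid2 share of the nidogen TPM (right, percent), by tissue. Points are pools and bars give the mean and SD. The salivary pools lie at 4.80 to 5.73 in the middle panel and at 64.0% to 68.9% in the right panel, above all other pools.

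Relative to Lamc1, the beta chain sum was higher in salivary mesenchyme than in the other tissues. Lamb1 held 88.4% ± 0.96 (SD, n = 5) of that sum in SM and 69.8% ± 2.9 in E13.5 MM. The summed TPM of Lamb1 and Lamb2 was 5.29 ± 0.42 (SD, n = 5) times that of Lamc1 in SM, against 2.04 ± 0.10 in E13.5 MM, 2.15 ± 0.23 in VM, 1.497 ± 0.10 in E16.5 MM and 1.35 ± 0.053 in FP. The summed alpha chain TPM was 1.46 ± 0.065 times that of Lamc1 in SM and 1.48 ± 0.089 in E13.5 MM. It was 1.14 ± 0.063 in FP. With the longest transcript as length the alpha chain ratios were 2.32 in SM, 2.59 in E13.5 MM and 2.01 in FP, so that SM lay below E13.5 MM, and the beta chain ratios ran from 1.95 in FP to 7.999 in SM. These ratios are descriptions and were not tested. Nid2 made up 65.5% ± 2.0 of the nidogen TPM in SM, 39.1% ± 4.8 in E13.5 MM, 28.2% ± 2.8 in VM, 37.3% ± 0.74 in E16.5 MM and 36.0% ± 1.6 in FP.

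Of the laminin chains outside the 10 genes, Lama3 and Lamb3 are chains of the laminin of epithelial hemidesmosomes. From E13.5 to E16.5 MM, Lama3 rose by 3.22 ± 0.24 (edgeR, adjusted p = 6.5e-11) and Lamb3 by 1.74 ± 0.32 (edgeR, adjusted p = 7.5e-05). Lamc3 separated E13.5 MM from VM, with 154 against 31.3 normalized counts (2.29 ± 0.23, edgeR adjusted p = 4.0e-08). Epithelial markers moved with Lama3 and Lamb3 in that comparison, at 16.1 to 119 CPM in E16.5 MM against 5.05 to 17.2 in E13.5 MM. In FP, Lama3 (2.07 ± 0.23) and Lamb3 (1.58 ± 0.32) were also called higher than in E13.5 MM. The median epithelial sum was 11.05 CPM in FP and 9.76 in E13.5 MM. Lama3 was lower in E13.5 MM than in VM (-1.86 ± 0.23), where the epithelial sum was 3.41 to 5.57 CPM. The part of epithelial cells in these results was not tested.

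Of the 6 type IV collagen genes, which form the second network of the basement membrane, 3 were called higher and 0 lower from E13.5 to E16.5 MM, where 12.6% and 7.16% of all genes were called, with a median log2 fold change of 0.75. Col4a1 and Col4a2, the chains of the common trimer, rose by 0.73 ± 0.10 and 0.76 ± 0.10 (edgeR, adjusted p = 7.2e-07 and 1.4e-06). Against SM, Col4a1 was higher in E13.5 MM (0.60 ± 0.09, edgeR adjusted p = 5.3e-06), while Col4a5 (-0.96 ± 0.12) and Col4a6 (-1.57 ± 0.20) were lower (edgeR, adjusted p = 3.4e-07 and 2.5e-07). Of 18 other basement membrane components, 9 were called higher and 1 lower in E13.5 MM against SM (median log2 fold change 0.57), where 14.5% and 15.6% of all genes were called. In E16.5 MM against E13.5 MM 6 were higher and 2 lower (median 0.35), where 12.6% and 7.16% of all genes were called. Frem1, a protein of the membrane beneath embryonic epithelia, stood at 8907 normalized counts in E13.5 MM against 811 in VM (3.46 ± 0.22, edgeR adjusted p = 8.2e-11). Fbln2, a laminin- and nidogen-binding fibulin, rose from E13.5 to E16.5 MM by 1.58 ± 0.10 (edgeR, adjusted p = 8.0e-12).

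Of 13 laminin receptors and co-receptors, 7 were called higher and 0 lower in E13.5 MM against SM, where 14.5% and 15.6% of all genes were called, with a median log2 fold change of 0.87. The integrin subunits Itga6 (1.895 ± 0.09, edgeR adjusted p = 1.6e-15) and Itga1 (1.39 ± 0.08, edgeR adjusted p = 1.8e-13) and the syndecan Sdc2 (1.80 ± 0.07, edgeR adjusted p = 1.2e-16) were among them. Itga7, the laminin-binding integrin subunit of muscle, rose from E13.5 to E16.5 MM by 2.02 ± 0.22 (edgeR, adjusted p = 6.4e-08) and to FP by 3.22 ± 0.23 (edgeR, adjusted p = 1.4e-11). Dag1, dystroglycan, rose to FP by 0.96 ± 0.09 (edgeR, adjusted p = 3.8e-09). Of 10 genes of the dystrophin-associated complex, 6 were called higher and 1 lower in FP against E13.5 MM (median 0.98), where 14.3% and 11.2% of all genes were called. Dmd, dystrophin, was among those higher (3.30 ± 0.25, edgeR adjusted p = 1.6e-10). Of 11 skeletal muscle markers, 10 were called higher and 0 lower in the same comparison (median 6.33). The part of muscle cells in the values of these receptors and of this complex was not tested.

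**Figure D5:**
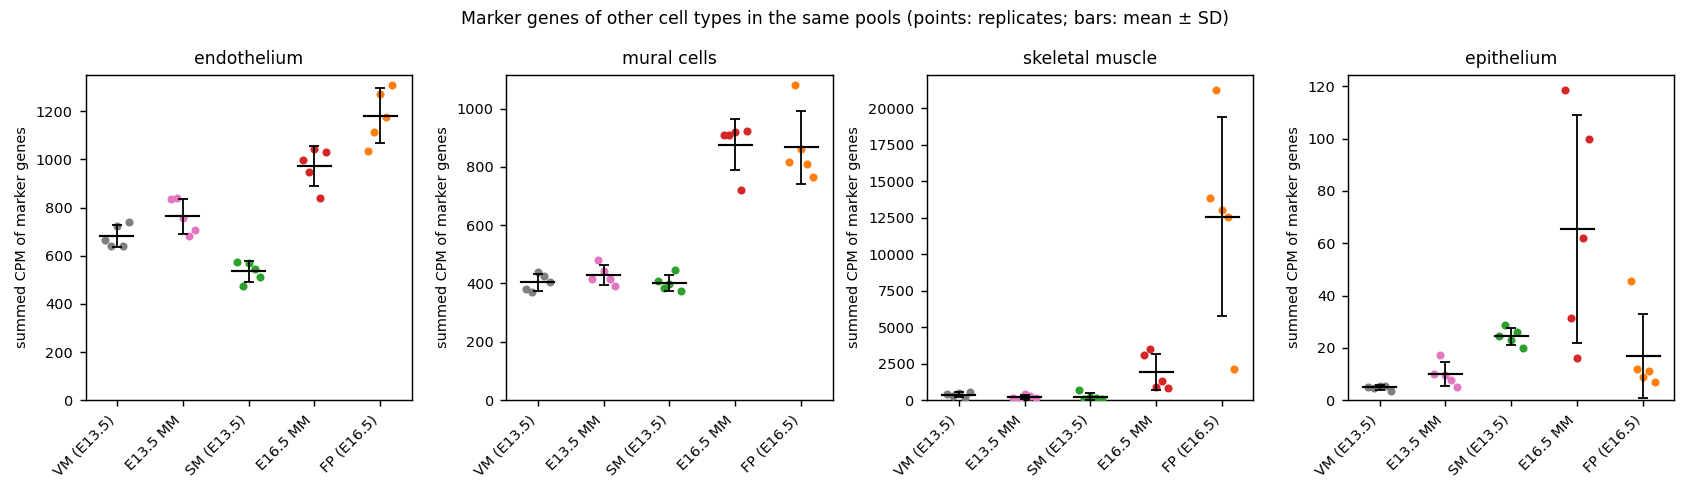
Summed CPM (y axis, linear from 0, a different scale in each panel) of marker genes of endothelium, mural cells, skeletal muscle and epithelium, by tissue. Points are pools and bars give the mean and SD. The muscle sum in FP is 2163 in replicate 5 and 12560 to 21250 in the other pools.

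Markers of cell types that make their own basement membrane differed between the stages, not all in the same direction. The 10 endothelial markers summed to 839 to 1044 CPM in E16.5 MM and 1034 to 1311 in FP, against 682 to 840 in E13.5 MM and 474 to 575 in SM. The ranges of E16.5 MM and E13.5 MM thus overlapped. Of these markers, 2 were called higher and 1 lower in E16.5 MM against E13.5 MM, and 7 higher and 0 lower in FP. The 8 mural cell markers summed to 719 to 923 and 764 to 1081 at E16.5, against 393 to 482 in E13.5 MM. Of these, 6 were called higher and 0 lower in E16.5 MM, and 6 higher and 1 lower in FP. The lower one was Pdgfrb (-1.21 ± 0.09, edgeR adjusted p = 4.2e-11). Over all genes, 12.6% were called higher and 7.16% lower in E16.5 MM against E13.5 MM, and 14.3% and 11.2% in FP. The 11 skeletal muscle markers reached 805 to 3491 in E16.5 MM and 2163 to 21250 in FP, against 113 to 428 in E13.5 MM. The 7 adipocyte markers were called higher, 7 of 7, in both E16.5 tissues against E13.5 MM. The 8 Schwann cell markers went the other way, at 79.6 to 91.9 CPM in E16.5 MM and 58.9 to 97.4 in FP against 137 to 155 in E13.5 MM, with 6 called lower and 0 higher in E16.5 MM and 5 lower and 1 higher in FP. None of the endothelial, mural, muscle or Schwann cell markers was at 0 in any tissue. Replicate 2 of FP, the pool with the highest muscle sum, was the highest of its tissue for 8 of the 10 genes, and replicate 5, the pool with the lowest, was the lowest for 4 (Lama2, Lama5, Lamb1 and Lamc1). But replicate 4, with a muscle sum above that of replicate 5, was the lowest for 5 (Lama4, Lamb2, Nid1, Nid2 and Hspg2). The part of these cell types in the E16.5 values of the 10 genes was not tested. Replicate 1 of E16.5 MM had the highest epithelial sum, 119 CPM, and was the highest of its tissue for 7 of the 10 genes, Lama1 and Lama5 among them. How often these pools were the highest or lowest over all genes was not computed. Neuronal markers set SM apart, at 323 to 414 CPM against at most 25.8 elsewhere, and their part in the salivary values of Lama2 and Lamb1 was not tested. The epithelial sum was higher in every pool of SM than in any pool of E13.5 MM or VM. Its median was 24.39 CPM in SM, 9.762 in E13.5 MM, 5.047 in VM and 61.91 in E16.5 MM. Of 10 epithelial markers tested, 0 were called higher and 2 lower in E13.5 MM against SM (median log2 fold change 0.69). Over all genes, 14.5% and 15.6% were called. The part of epithelial cells in the salivary values of Lama1 was not tested.

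The genes whose log2 CPM followed each member most closely over the 25 pools were sought among 12707 genes with a mean normalized count above 100. They were Dbp for Lama1 (Pearson r = 0.957), Sorbs2 for Lama2 (0.961), Inpp5d for Lama4 (0.971), Plec for Lama5 (0.947) and Ldhb for Lamb1 (0.985). For the rest they were P3h3 for Lamb2 (0.887), Ptprb for Lamc1 (0.963), Crat for Nid1 (0.943), Nrk for Nid2 (0.977) and Ppp1r12b for Hspg2 (0.953). These values are descriptions: the pools of a tissue share its dissection and stage, and r within tissues was not computed.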

How the data were processed

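RNA-Seq reads of 25 pools were processed by the authors with FastQC 0.11.8, MultiQC 1.9, Trimmomatic 0.39, SortMeRNA and Salmon 0.99.0 on mm10, and the deposited values are estimated counts per gene, in whole numbers. The sources used here do not give the annotation release. Salmon splits reads between similar genes. Symbols and exon lengths were taken from GENCODE M21, in which 375 of 35880 identifiers, with 0.081% of counts, had no symbol.

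Counts were scaled by TMM and compared by edgeR 4.0.16 (R 4.3.3, quasi-likelihood F test) over 17657 genes and all 25 samples, with 1 mean per tissue, no covariate and Benjamini-Hochberg adjustment over all genes tested. SE is the size of the change over the root of its F statistic. DESeq2 1.42.0 was an alternative. TPM, shares and figures were made with Python 3.11.15, pandas 2.3.3 and matplotlib 3.10.9. The fit was also run on simulated counts, and the outcome is not given here. Those counts were drawn independently for each pool, so that run could not cover pools that share a litter. Other alternatives were another normalization, no expression filter, fits of 2 tissues, a replicate block, a count threshold on the mean of both tissues, another gene length and each pool left out in turn.

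The genes and gene lists were chosen with earlier results of these data known. The text names all 10 members, up to 4 called genes of each pathway list per comparison, other laminin chains and the gene most correlated with each member. Some genes of these lists are not reported here.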

Additional observations from a re-analysis of the deposited data

Results flagged for a closer look

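In 5 of the 50 groups of 5 pools (10 genes in 5 tissues), the highest or lowest pool stood far from the rest by Dixon's criterion, and chance flags about 1 in 20 groups. Lama4 stood at 12659 normalized counts in replicate 2 of E13.5 MM, with the next pool at 10617, and at 12735 in replicate 4 of E16.5 MM, below the next pool at 14441. Lama5 stood at 183 in replicate 5 of VM, with the next pool at 162. In replicate 4 of VM both Nid1 (11260, next pool 9946) and Hspg2 (5916, next pool 4261) were far above the rest, and that pool was the highest of its tissue for 6 of the 10 genes.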

How the results depend on the processing

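Of the counts of genes called, that of E13.5 MM against VM moved, from 0 to 1 without the expression filter (Nid2), in a fit of those tissues alone (Lama1) and in the Wald test of DESeq2 (Lama1), and to between 0 and 1 when a pool was left out. The other counts stayed within 1.5 times under every alternative run, and with a pool left out ran from 5 to 6 (E13.5 MM against SM), 4 to 5 (VM against SM), 4 to 5 (E16.5 MM against E13.5 MM), 7 to 7 (FP against E13.5 MM), 2 to 4 (FP against E16.5 MM), 7 to 8 (E16.5 MM against SM) and 7 to 8 (FP against SM). Reversals were all of differences near 0 that were not called. For Lamb2 they were 0.0124 in E13.5 MM against VM without the filter and 0.0121 in VM against SM in a fit of those tissues alone. For Lamb1 they were 0.0038 in E16.5 MM against E13.5 MM, and 0.0275 in E16.5 MM against VM, under the size factors and the Wald test of DESeq2, and 0.0238 in E16.5 MM against VM in a fit of those tissues alone. With a pool left out, Lamb1 ran from -0.0132 to 0.0803 in E13.5 MM against VM, -0.0689 to 0.0263 in E16.5 MM against E13.5 MM and -0.0144 to 0.0556 in E16.5 MM against VM. Lamb2 ran from -0.0859 to 0.0574 in E13.5 MM against VM, -0.1114 to 0.0319 in E13.5 MM against SM and -0.0827 to 0.0328 in VM against SM, and Lama5 from -0.0695 to 0.3433 in E13.5 MM against SM. The causes were not tested. Hspg2 in VM against SM lost its call without the filter (edgeR, adjusted p = 0.087) and in a fit of those tissues alone (edgeR, adjusted p = 0.089), and Lamc1 in E16.5 MM against E13.5 MM lost it without the filter (0.54). With the longest transcript as length, the share of Lama1 among alpha chains in SM was 11.0%, and Lama4 still led in every tissue.

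With the replicate number as a block, the 8 counts were 0, 6, 4, 5, 7, 3, 7 and 7 in the order of the report, and the call lost was that of Hspg2 in VM against SM (-0.58, edgeR adjusted p = 0.051). Same-numbered pools share only a number: of 50 pairs, 11 deviated together with a correlation above 0.1, the median was 0.017, and 6 of 25 pools correlated best with their own number.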
